A study of Mus musculus with 6 samples.

Results

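The solute carriers expressed in these cells were taken as the genes whose symbol starts with Slc, a family number, the letter a and a member number, and whose level reached 1 RPKM in 3 or more of 6 libraries. RPKM counts reads per kilobase of exon, scaled to library depth. Such a symbol was found for 266 of the 24628 genes in the deposited data. The glucose carriers Slc2a1 and Slc2a3 and the lactate and pyruvate carriers Slc16a1 and Slc16a3 were left out by name, 140 stayed under the expression rule, and 122 genes remained. The pattern does not take the families whose symbols carry other letters, such as Slc35b or Slco. The members were thus chosen by their RPKM level, without regard to group, and every member had at least 1 library of each group at 1 RPKM. By name 117 of the 122 were carriers. The other 5 are only named after one: the scaffold proteins Slc9a3r1 and Slc9a3r2, Slc4a1ap, Slc7a6os and the pseudogene Slc2a4rg-ps.

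The libraries came from mouse lymphocytes, which the series text calls ILC1s, group 1 innate lymphoid cells close in expression to natural killer (NK) cells. In the floxed group, 3 libraries carried Rorafl/fl in their titles. The 3 libraries of the other group had the word treatment in theirs and were taken as the conditional knockout (cKO) of Rora by elimination, since the series compared wild-type with cKO cells. Their columns add Ncr1, the gene of the NK receptor NKp46, to the name Rora, but the labels spell out no Cre driver. They also give no age, sex, tissue, sort gate, number of animals or pooling, nor whether replicates were separate animals, so the spread behind each p-value may be technical.

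Solute carriers are membrane proteins that move amino acids, sugars, ions, metals, nucleosides, lipids and vitamins across the plasma membrane and the membranes of organelles. Lymphocytes raise the uptake of amino acids and glucose when they are activated, and the heavy chain Slc3a2 with a light chain such as Slc7a5 imports large neutral amino acids that feed the mTOR kinase. Carriers of the Slc25 family exchange nucleotides, phosphate and metabolites across the inner mitochondrial membrane, and the Slc39 and Slc30 families bring zinc into the cytosol and take it out.

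Rora, which encodes the nuclear receptor RORα, was at 6.92, 7.41 and 7.91 RPKM in floxed replicates 1 to 3 and at 5.69, 6.29 and 6.24 RPKM in cKO replicates 1 to 3, and it did not pass (log2 difference -0.25, limma adjusted p = 0.242). All 3 cKO libraries lay below all 3 floxed ones, and transcript remained in each. The values are whole-gene levels and do not show whether a deleted exon was read. Each library held 20152148 to 22440172 reads assigned to genes. Summed ILC1 and NK markers, 12 genes, were at 1034 to 1061 RPKM in floxed libraries and 889 to 913 RPKM in cKO libraries. B cell markers, 7 genes, summed to 13.4 to 13.7 and 7.85 to 8.92 RPKM, and T cell markers, 6 genes, to 58.5 to 62.6 and 53.7 to 59.3 RPKM. No marker of any list was at 0 in all libraries. The groups also differed in Xist, expressed from the inactive X chromosome (31.9 ± 3.16 against 9.43 ± 0.394 RPKM), in the Y-linked Ddx3y (10.4 ± 0.498 against 20.8 ± 0.438) and in the immediate-early gene Fos (168 ± 0.819 against 346 ± 13.7). The heat shock gene Hspa1b was at 34.3 ± 1.16 against 116 ± 6.07 RPKM. Of the 12 ILC1 and NK markers 1 passed as higher and 3 as lower, of the 2 B cell markers tested 1 passed as lower, and of the 5 T cell markers tested 1, Cd3e, passed as lower (5.35 ± 0.430 against 2.93 ± 0.142 RPKM). Among the ILC1 and NK markers, those that passed as lower were Ncr1, Cxcr6 and Il7r. Ncr1 was at 372 ± 10.8 against 246 ± 12.5 RPKM, Cxcr6 at 8.90 ± 1.04 against 4.69 ± 0.453 and Il7r at 228 ± 5.49 against 190 ± 1.93. Tbx21, Itga1 and Zfp683 were lower without overlap and did not pass. Eomes was the one that passed as higher (42.4 ± 2.44 against 65.8 ± 4.31). Klrd1, Prf1 and Itga2 had slightly higher means in the cKO group. Summed markers of macrophages and monocytes were at 28.004 to 32.7 RPKM in the floxed group and 25.9 to 26.1 in the cKO group, those of stromal and endothelial cells at 17.4 to 17.5 and 13.9 to 16.01, and those of hepatocytes at 1.24 to 1.54 and 0.170 to 0.988. Several sums came mostly from 1 gene. These were Cd22 for B cells (9.93 ± 0.285 against 6.49 ± 0.649 RPKM) and Lyz2 for macrophages (23.4 ± 1.69 against 20.9 ± 0.913). For stromal and endothelial cells it was Pecam1 (17.3 ± 0.137 against 15.1 ± 1.09). Sums for neutrophils, dendritic cells and erythroid cells overlapped, at 0.559 to 1.65 and 0.161 to 0.984, 2.65 to 4.05 and 2.77 to 3.54, and 2.33 to 6.24 and 1.61 to 2.57 RPKM. The part of these differences in the values below was not tested, and group and any of them cannot be told apart in this design. Below, where values are joined by the word against, the floxed group comes first, single values are in the order of replicates 1 to 3, and means carry the SD of 3 libraries.

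Solute carrier transcripts were mostly scarce. The median member had a mean level of 3.32 RPKM over the 6 libraries, against 7.02 RPKM for all 12731 genes that met the same expression rule. Of the members 72 had a mean under 5 RPKM and 37 of these were under 2, whereas 14 were at 20 RPKM or more. The 10 most abundant members held 44.5% of all member RPKM. The highest was Slc9a3r1, a scaffold and not a carrier, at 101 ± 1.68 RPKM in floxed and 100.3 ± 1.43 in cKO libraries. Among carriers the order began with Slc39a7, which releases zinc from the endoplasmic reticulum and Golgi, at a mean of 63.7 RPKM over the 6 libraries. It was followed by the amino acid heavy chain Slc3a2 at 50.8, the phosphate importer Slc20a1 at 47.9 and the orphan Slc38a10 at 45.4. Next came the mitochondrial phosphate carrier Slc25a3 at 37.3 and the ADP/ATP exchanger Slc25a5 at 37.03, which were no further apart than replicates of 1 group. By class, mitochondrial carriers held the most, 25.3% of member RPKM in 31 genes. Amino acid carriers held 12.3% in 15 genes, carriers of chloride, phosphate, sulfate and calcium 11.9% in 12, and metal carriers 11.6% in 19.

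**Figure D1:**
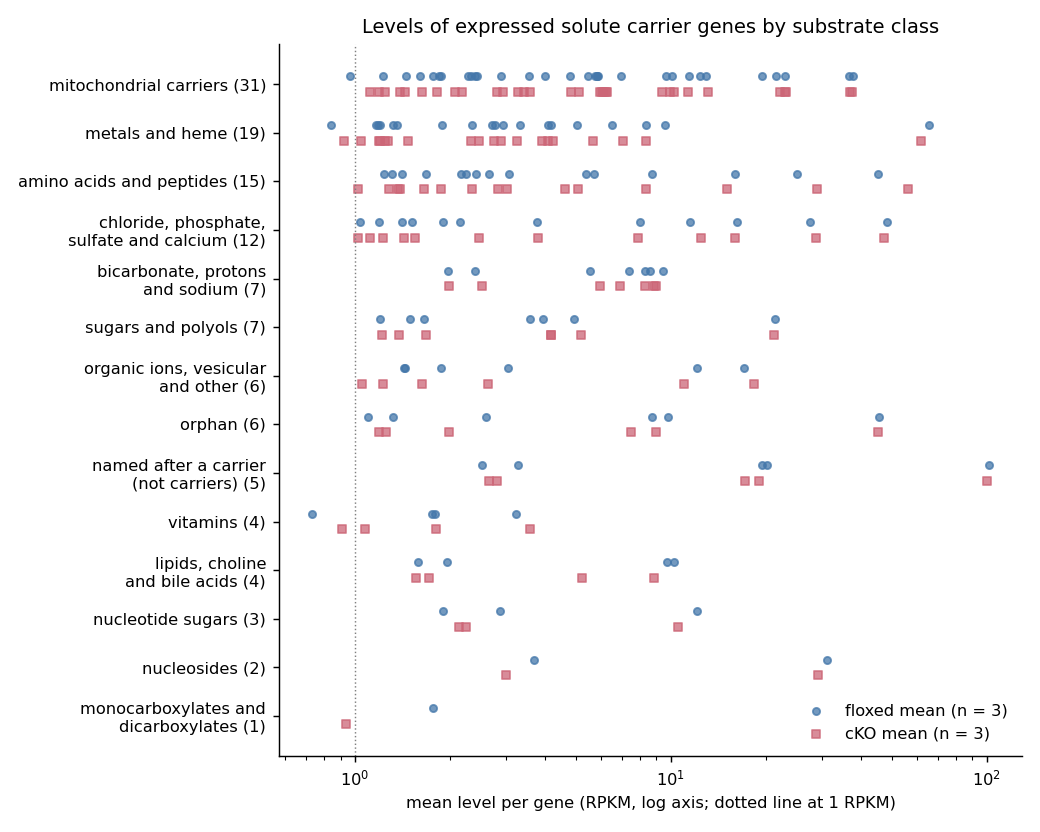
Mean level of each of the 122 members (RPKM, log axis), with a point for the floxed mean and a point for the cKO mean of each gene, arranged by substrate class. By the mean over the 6 libraries, 72 of the 122 members are under 5 RPKM, and 14 are at 20 RPKM or more.

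Slc27a6 was the member that changed, and its level fell. All members together summed to 1057 to 1063 RPKM per floxed library and 1040 to 1052 RPKM per cKO library, slightly lower when scaled to library totals. For replicates 1 to 3 the TMM factors, which rescale library totals, were 1.011, 1.014 and 1.011 (floxed) and 0.987, 0.987 and 0.991 (cKO). The sums were not divided by these factors, which were also lower for cKO, so no change of the total was read from them. With voom, which used the factors, the median log2 difference of members was 0.0016. After adjustment over all genes 1 member passed limma, Slc27a6, which was lower in cKO, and 0 were higher. That is 0.82% of members, beside 1.32% of all tested genes (83 higher, or 0.652%, and 85 lower, or 0.668%). At an unadjusted p under 0.05 there were 15 members, 4 higher and 11 lower, or 12.3% beside 14.1% of all tested genes (5.55% higher and 8.6% lower). The 2 groups did not overlap for 24 members, 5 higher and 19 lower, or 19.7% beside 20.3% of all tested genes (7.61% higher and 12.7% lower). The 19 lower members without overlap were 15.6% of members. In either direction, each of these shares was near or below its background. The median log2 difference, cKO minus floxed on log2(RPKM + 1), was -0.02 for members and -0.03 for all tested genes, and 77 members (63.1%) lay below 0 beside 57.3% of all tested genes. Tested on recovered whole reads with limma's voom instead, 3 members passed, Slc3a2 and Slc38a2 higher and Slc27a6 lower, beside 4.17% of all tested genes (2.52% higher and 1.65% lower). With voom scaled by library totals only, 4 passed beside 4.19% (1.78% higher and 2.41% lower): Slc3a2 higher, and Slc27a6, Slc35a3 and Slc16a6 lower. Calls over all genes were split 49.4% higher in the main test, 60.5% with voom and 42.4% with voom on library totals.

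**Figure D2:**
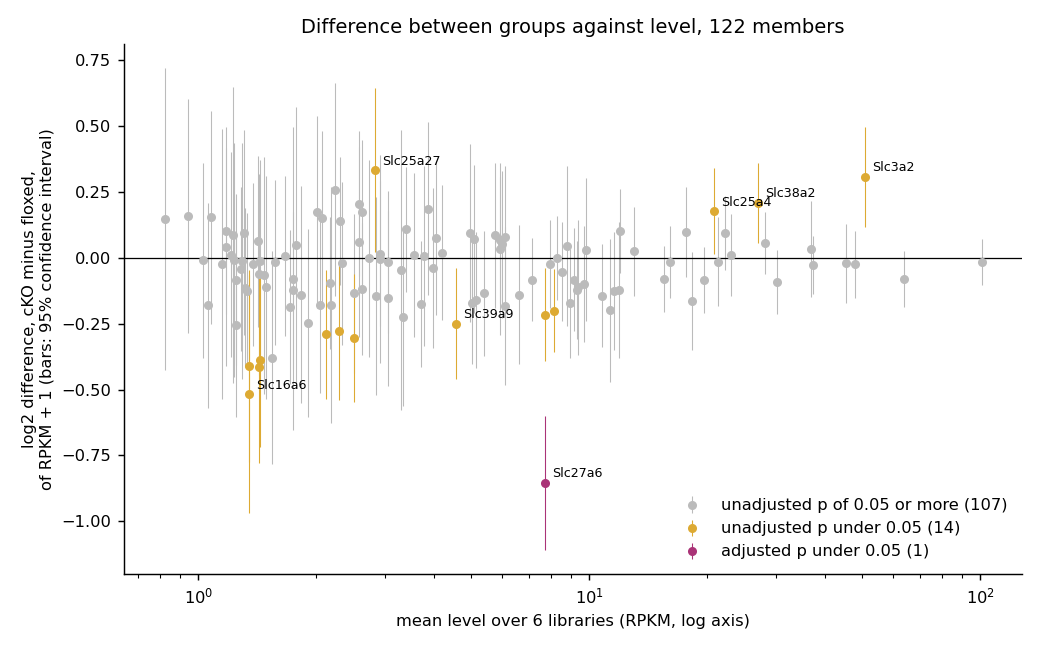
Log2 difference of each member between cKO and floxed libraries with its 95% confidence interval, against its mean level over the 6 libraries (RPKM, log axis). Slc27a6 lies apart at -0.85, and the intervals narrow from the scarce to the abundant members.

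Fatty acid and choline carriers included the member that passed. Slc27a6 belongs to the fatty acid transport proteins, which activate long-chain fatty acids and aid their uptake. The gene lies on the plus strand at chr18:58556257-58612773 (mm10) and its exons, 2485 bases, share none with another gene. Its level was 9.73, 10.5 and 10.5 RPKM in floxed replicates 1 to 3 and 4.45, 6.06 and 5.20 RPKM in cKO replicates 1 to 3. The floxed libraries lay close together, the cKO libraries were all far below them, and cKO replicate 1 was the lowest. The mean went from 10.2 ± 0.420 to 5.24 ± 0.808 RPKM (SD, n = 3 each), 51.3% of the floxed level, with a log2 difference of -0.85 (SE 0.11, 95% confidence interval -1.11 to -0.60, limma adjusted p = 0.0192). Each library had 248 to 562 reads of this gene. In bulk RNA, fewer cells that express a gene and less RNA per cell cannot be told apart. The summed markers of ILC1 and NK cells, B cells, macrophages, stromal cells and hepatocytes were also lower in every cKO library than in any floxed one, and their part in this result was not tested. Several of these sums came mostly from 1 gene, as given above. Of the 12 ILC1 and NK markers 3 passed as lower, among them Cxcr6 at 52.8% of its floxed level, and 1, Eomes, passed as higher. Permuting the group labels exactly gave p = 0.1 (two-sided, exact permutation test), the smallest that 3 against 3 libraries allow. The call was lost when a library was left out in 4 of 6 cases, with an adjusted p of 0.0624, 0.0856 and 0.0883 without floxed replicate 1, 2 or 3 and 0.0814 without cKO replicate 3. It was also lost with no filter on low values (0.0542) and with the replicate number as a block (0.0567), while the log2 difference stayed between -0.98 and -0.76 in all 16 alternatives.

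The nearest genes of the table on either side of Slc27a6 that met the expression rule did not pass. Slc12a2, the sodium-potassium-chloride cotransporter and itself a member, ends 609436 bases before it and was at 2.14 ± 0.0212 RPKM in floxed and 2.46 ± 0.191 in cKO libraries. Isoc1 lies 46709 bases after it, at 4.25 and 3.68 RPKM. The family's other member here, Slc27a4, was at 2.13, 2.09 and 1.66 RPKM in floxed and 1.85, 1.16 and 2.13 in cKO libraries, with overlapping groups. Summed over the 5 Slc27 genes of the table, the level was 12.8 ± 0.31 RPKM in floxed and 7.84 ± 0.61 RPKM in cKO libraries. The choline carrier of mitochondria and plasma membrane Slc44a2 was at 9.27, 9.20 and 10.7 against 8.98, 8.58 and 8.96 RPKM, just short of overlap (limma adjusted p = 0.556), and Slc44a1 at 1.58 ± 0.141 against 1.56 ± 0.252. All 4 members of the class lay below 0. Their sum was 23.5 ± 0.74 RPKM in floxed and 17.3 ± 0.76 in cKO libraries, 73.8% of the floxed level. Without Slc27a6 it was 13.3 ± 0.53 and 12.1 ± 0.77, and the groups overlapped.

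**Figure D3:**
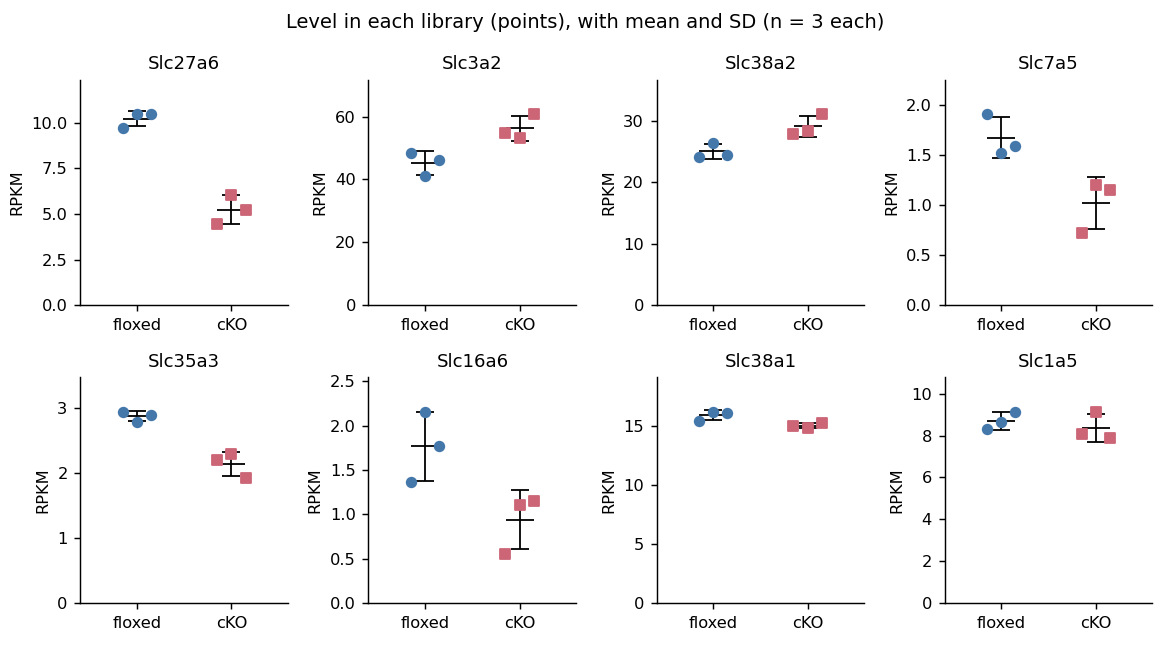
Level of 8 members in each library (RPKM, linear axes from 0), points for libraries, bars for the mean and SD of 3. For Slc27a6 the floxed libraries lie near 10 and the cKO libraries between 4.45 and 6.06, while for Slc1a5 the groups overlap.

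Among amino acid carriers Slc3a2 and Slc38a2 had the higher level in every cKO library, without passing the main test, and the light chain Slc7a5 the lower one. Slc3a2, the CD98 heavy chain that brings its light chains to the surface, lies on the minus strand at chr19:8706882-8723369 (mm10). It was at 48.5, 41.03 and 46.2 RPKM in floxed replicates 1 to 3 and 54.9, 53.1 and 60.8 RPKM in cKO replicates 1 to 3. The cKO libraries were all above the floxed ones, whose replicate 2 was the lowest. The means were 45.3 ± 3.84 and 56.3 ± 3.99 RPKM, a log2 difference of 0.31 (SE 0.08, 95% confidence interval 0.12 to 0.50) with a limma adjusted p of 0.159, so it did not pass the main test. On recovered reads voom gave 0.35 with an adjusted p of 0.00124. Slc38a2, a sodium-coupled importer of small neutral amino acids, was at 24.1, 26.4 and 24.5 RPKM in floxed and 27.8, 28.4 and 31.1 RPKM in cKO libraries. All cKO libraries lay above the floxed ones here too, with a log2 difference of 0.21 (limma adjusted p = 0.219; voom adjusted p = 0.0241). The exact permutation p of each gene was 0.1, again the smallest possible.

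The 2 expressed light chains of Slc3a2 had lower means in the cKO group, and neither passed. Slc7a5, which pairs with Slc3a2 to import leucine and other large neutral amino acids, was at 1.91, 1.53 and 1.60 RPKM in floxed and 0.721, 1.20 and 1.15 RPKM in cKO libraries. Its groups did not overlap and cKO replicate 1 was the lowest, but the gene rested on 60 to 154 reads per library and did not pass (log2 difference -0.41, 95% confidence interval -0.78 to -0.04, limma adjusted p = 0.304). Slc7a6, a light chain for cationic and neutral amino acids, was at 2.40, 2.43 and 1.66 against 1.76, 1.80 and 1.40 RPKM, with overlapping groups. The light chains Slc7a7, Slc7a8 and Slc7a11 stayed under the expression rule, at 0.298 ± 0.0568 against 0.369 ± 0.0591, 0.0267 ± 0.0287 against 0.0370 ± 0.0459 and 0.00901 ± 0.00371 against 0.00680 ± 0.0118 RPKM. The means of Slc7a7 and Slc7a8 were thus on the higher side in the cKO group. Summed over the 6 light chain genes of the table, the level was 4.19 ± 0.58 RPKM in floxed and 3.09 ± 0.22 in cKO libraries. The ratio of Slc3a2 to that sum, both per length, ran from 9.38 to 13.1 in the floxed group and from 15.9 to 20.8 in the cKO group and was not tested.

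The other 11 amino acid carriers did not pass. Slc38a1, a glutamine importer, was at 15.5, 16.2 and 16.2 against 15.04, 14.9 and 15.3 RPKM, and Slc1a5, which exchanges glutamine and other neutral amino acids, at 8.32, 8.63 and 9.14 against 8.08, 9.11 and 7.89. The cationic amino acid carrier Slc7a1 was at 5.38 ± 0.643 against 4.64 ± 0.0759 RPKM, the taurine carrier Slc6a6 at 5.70 ± 0.716 against 5.09 ± 0.218. The lysosomal carriers Slc38a9, which signals arginine to mTOR, and Slc15a4, which exports histidine and peptides, were at 1.41 ± 0.171 against 1.36 ± 0.141 and 1.31 ± 0.380 against 1.28 ± 0.345 RPKM. Of the 15 members 4 lay above 0 and 11 below, yet their sum was 124 ± 3.02 RPKM in floxed and 135 ± 6.15 in cKO libraries, with no overlap. Without Slc3a2 the sums were 78.9 ± 1.49 and 79.0 ± 2.23, and without Slc3a2 and Slc38a2 they were 53.9 ± 0.91 and 49.9 ± 0.49, the cKO libraries then being the lower ones.

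The promoter stretches of the 2 amino acid carriers that lay above the floxed level in every cKO library are printed to show what precedes their start sites. They are the 250 bases before a RefSeq start (GRCm38.p6, mm10, minus strand for both), at chr19:8713898-8714147 for Slc3a2 and chr15:96699729-96699978 for Slc38a2, 5′ to 3′. Capitals mark TGGGTCA, a form of the core of the element that ROR receptors bind. For Slc3a2 this RefSeq start lies inside the gene as the deposited table draws it, and the match begins 11 bases before that start.
Slc3a2: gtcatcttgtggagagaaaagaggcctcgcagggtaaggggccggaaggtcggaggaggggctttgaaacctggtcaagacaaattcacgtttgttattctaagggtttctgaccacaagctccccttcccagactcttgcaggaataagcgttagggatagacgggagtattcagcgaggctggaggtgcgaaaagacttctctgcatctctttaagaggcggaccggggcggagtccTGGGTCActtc
Slc38a2: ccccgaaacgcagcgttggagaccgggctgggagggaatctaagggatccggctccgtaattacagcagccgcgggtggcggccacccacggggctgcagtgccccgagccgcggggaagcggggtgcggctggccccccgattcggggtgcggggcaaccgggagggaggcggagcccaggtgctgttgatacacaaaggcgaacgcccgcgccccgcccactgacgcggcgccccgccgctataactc
TAGGTCA and TGGGTCA were searched on both strands and cannot match at the same position. Of the 122 members 90 had a RefSeq promoter, and 9 of these (10%) held either word, beside 6.15% of 27025 genes. The 9 were Slc3a2, Slc4a7, Slc12a9, Slc25a1, Slc25a22, Slc26a10, Slc29a1, Slc2a9 and Slc37a4, and none of them passed. TGATGNAA, the core of the amino acid response element read by ATF4, was in 3 of the 90 (Slc26a10, Slc50a1 and Slc9a9), 3.33% beside 3.91% of all genes, and not in either stretch printed. Slc27a6 and Slc7a5 were among the 32 members without an entry. A match is only a run of letters and does not show binding. Only the 250 bases before each start were searched, so the absence of a word there does not show that a gene lacks it elsewhere.

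Genes that sense amino acids or respond to their lack were read beside these carriers. Of 32 listed genes 26 were tested, and 1 rose and 0 fell (3 higher and 4 lower at an unadjusted limma p under 0.05, and 2 and 0 with voom), with a median log2 difference of -0.05 beside -0.03 for all tested genes. Of all tested genes 0.652% passed limma as higher and 0.668% as lower. The shares were 5.55% and 8.6% at an unadjusted limma p under 0.05, and 2.52% and 1.65% with voom. With so few genes listed, these counts were not read as a result about the list. The gene that rose was Ddit3, a stress-response transcription factor, from 43.9 ± 1.06 to 69.9 ± 3.34 RPKM (log2 difference 0.66, limma adjusted p = 0.00336), and it passed in all 16 alternatives. Atf4, the transcription factor of the integrated stress response that acts on many amino acid carrier genes, was at 164 ± 8.80 against 202 ± 13.2 RPKM (limma adjusted p = 0.0976; voom adjusted p = 0.000183). The kinase Mtor was at 5.60 ± 0.169 against 5.21 ± 0.532 RPKM and its partner Rptor at 4.26 ± 0.148 against 3.67 ± 0.157. Lamtor4 was higher without overlap, at 12.8 ± 0.360 against 15.8 ± 1.39 RPKM, and did not pass (limma adjusted p = 0.178). Some other genes of the list were lower or overlapped. Shmt2 was at 36.7 ± 0.837 against 32.7 ± 0.687 RPKM and Aldh18a1 at 5.63 ± 0.562 against 4.41 ± 0.430, both lower without overlap and neither passing. Psat1 and Phgdh overlapped, at 2.54 ± 0.233 against 2.41 ± 0.0695 and 20.1 ± 2.35 against 19.6 ± 1.76 RPKM. Asns, Trib3 and Chac1 stayed under the expression rule.

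No mitochondrial carrier passed, and their summed level overlapped between the groups. The 31 members summed to 266 ± 4.73 RPKM in floxed and 267 ± 1.60 in cKO libraries, and 17 had a log2 difference above 0 and 14 below. Slc25a3, which imports phosphate for ATP synthesis, was at 38.4, 36.5 and 38.2 against 36.7, 37.9 and 36.3 RPKM. Slc25a5, an ADP/ATP exchanger encoded on the X chromosome, was at 40.04, 36.9 and 32.99 against 39.1, 37.01 and 36.2 RPKM, with overlapping groups. Its relative Slc25a4 was at 21.3, 18.8 and 18.3 against 21.99, 22.7 and 21.7 RPKM, the cKO libraries above the floxed ones (log2 difference 0.18, limma adjusted p = 0.317). Together the pair summed to 56.1 ± 5.02 and 59.5 ± 1.62 RPKM.

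The smallest p of this class belonged to Slc25a23, a calcium-regulated exchanger of ATP-magnesium and phosphate, at 2.42, 2.53 and 2.37 against 1.77, 1.95 and 1.73 RPKM (limma adjusted p = 0.284). Its groups did not overlap. Among its relatives with the same substrates the means were higher in the cKO group: Slc25a24 was at 21.5 ± 0.716 against 23.00 ± 1.22 RPKM and Slc25a25 at 2.32 ± 0.350 against 2.82 ± 0.125. The glutamate carrier Slc25a22 was at 1.52, 1.89 and 1.90 against 0.892, 1.26 and 1.20 RPKM, also without overlap (limma adjusted p = 0.287). Slc25a27, of the uncoupling protein branch, was at 2.26, 2.07 and 2.86 against 3.45, 3.53 and 2.83 RPKM, and there floxed replicate 3 reached above cKO replicate 3. Slc25a20, which brings acylcarnitines to fatty acid oxidation, was at 1.85 ± 0.436 against 2.19 ± 0.265 RPKM, and the citrate carrier Slc25a1 at 5.74 ± 0.456 against 6.07 ± 0.649.

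Metal carriers summed to a slightly lower level in the cKO libraries, and no member passed. The 19 members summed to 128, 123 and 128 RPKM in floxed and 117, 115 and 120.2 RPKM in cKO libraries. Of them 14 lay below 0, as did 57.3% of all tested genes. These sums are scaled to library totals, and the TMM offset between the groups given above was not taken out. The groups did not overlap, and without the abundant Slc39a7 they still did not, at 60.8 ± 1.25 and 55.4 ± 0.87 RPKM. The 14 Slc39 importers of the table, 10 of them members, summed to 95.6 ± 3.08 against 88.7 ± 1.08 RPKM, and the 7 Slc30 exporters, 5 of them members, to 19.3 ± 0.54 against 18.1 ± 0.73. Slc39a7 was at 66.96, 63.4 and 66.2 against 61.5, 60.2 and 64.02 RPKM, with overlap. Its level is uncertain, since 80.1% of its exon bases are shared with the gene model Gm20427 on the same strand. Slc39a6, a zinc importer of the plasma membrane, was at 8.05, 8.41 and 8.56 against 7.20, 7.41 and 6.53 RPKM (limma adjusted p = 0.270). The Golgi importer Slc39a9 was at 5.06, 5.04 and 5.03 against 3.70, 4.12 and 4.46 RPKM (limma adjusted p = 0.283). Neither gene's groups overlapped. The exporter Slc30a5, which loads the secretory pathway with zinc, was at 9.56 ± 0.932 against 8.35 ± 0.426 RPKM. Slc11a2, the importer of ferrous iron, was at 4.17 ± 0.513 against 4.23 ± 0.337 RPKM, while the iron exporter Slc40a1 and the phagosomal Slc11a1 stayed under the expression rule.

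**Figure D4:**
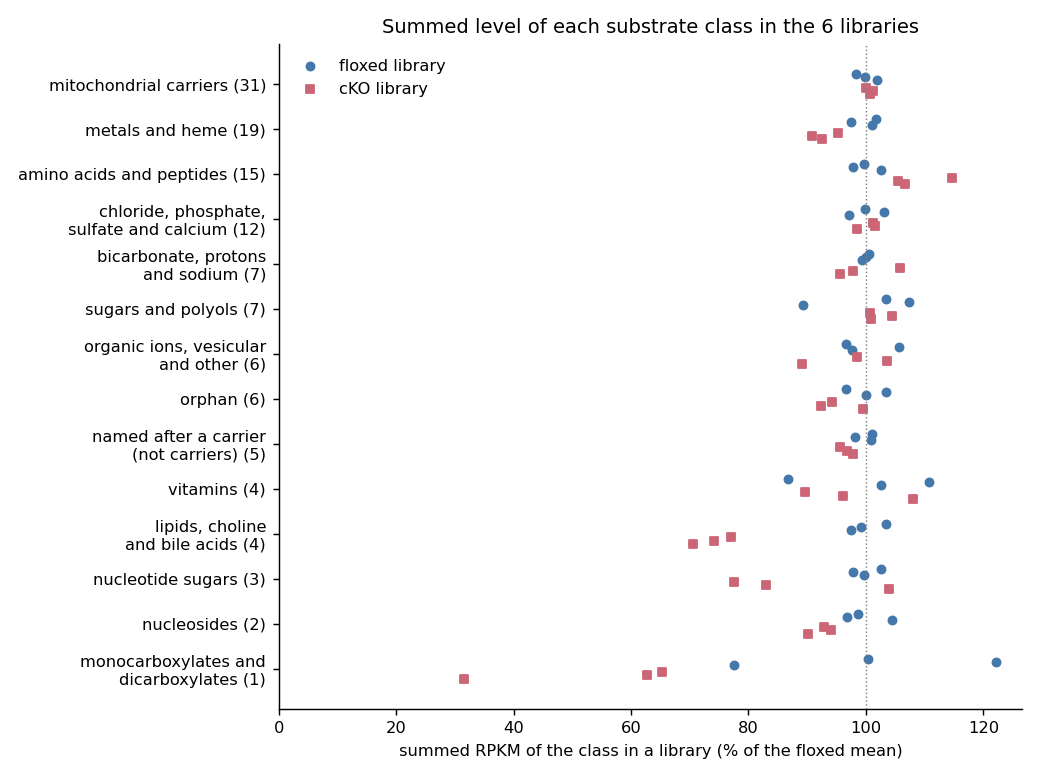
Summed RPKM of each substrate class in each library, as a percentage of the floxed mean of that class, points for libraries of the floxed and cKO groups. Groups lie apart for 6 of the 14 sums, among them lipids and metals on the lower side and amino acids on the higher side, and overlap for mitochondrial carriers.

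Carriers of nucleosides, nucleotide sugars, monocarboxylates and vitamins were few and mostly scarce. Slc28a2, which concentrates purine nucleosides with sodium, was at 32.3, 30.7 and 30.7 against 27.9, 29.8 and 29.9 RPKM, without overlap (limma adjusted p = 0.492). The equilibrative carrier Slc29a1 was at 3.68 ± 0.551 against 3.01 ± 0.525 RPKM. Slc35a3, which carries UDP-N-acetylglucosamine into the Golgi for glycan branching, was at 2.93, 2.78 and 2.89 against 2.20, 2.28 and 1.92 RPKM, all cKO libraries below the floxed ones (log2 difference -0.30, limma adjusted p = 0.259). The CMP-sialic acid carrier Slc35a1 was at 12.1, 11.7 and 12.6 against 12.6, 9.63 and 9.29 RPKM, where cKO replicate 1 stood with the floxed libraries. Slc16a6, a monocarboxylate carrier and the only member of its class, was at 1.37, 2.15 and 1.77 against 0.557, 1.11 and 1.15 RPKM (log2 difference -0.52, limma adjusted p = 0.295). Of its exon bases 21.5% lie opposite Amz2, whose reads could not be told apart from those of Slc16a6 without a stated strand setting. The riboflavin carrier Slc52a2 was at 1.43, 2.28 and 1.64 against 1.12, 0.982 and 1.12 RPKM, again without overlap (limma adjusted p = 0.302). The ascorbate carrier Slc23a2 was at 3.24 ± 0.283 against 3.57 ± 0.247 RPKM and the biotin and pantothenate carrier Slc5a6 at 1.76 ± 0.703 against 1.80 ± 0.378.

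Ion and sugar carriers overlapped in their sums, and none of them passed. The 12 carriers of chloride, phosphate, sulfate and calcium summed to 125 ± 3.71 RPKM in floxed and 125 ± 2.11 in cKO libraries. Slc20a1, the sodium-phosphate importer, was at 46.3, 51.6 and 47.1 against 46.9, 48.3 and 47.2 RPKM, and the potassium-chloride cotransporter Slc12a7 at 27.6 ± 0.267 against 28.8 ± 1.15. Both sets of values overlapped for Slc20a1. The sulfate carrier Slc26a2 was at 1.90 ± 0.230 against 1.54 ± 0.136 RPKM. Carriers of bicarbonate, protons and sodium summed to 43.6 ± 0.25 and 43.5 ± 2.36 RPKM over 7 genes. Among them the sodium-proton exchanger Slc9a9 of endosomes was at 9.43 ± 0.630 against 8.85 ± 0.666 RPKM. Slc9a8, the Golgi exchanger, was at 1.97 ± 0.612 against 2.51 ± 0.253 RPKM, and the bicarbonate importer Slc4a7 at 7.36 ± 0.0854 against 6.90 ± 0.236. The difference in means was within the spread of replicates for Slc9a9, and of these 3 genes only Slc4a7 had groups that did not overlap. The 7 sugar carriers that remain without the main glucose importers summed to 38.2 ± 3.62 and 39.0 ± 0.80 RPKM. Slc50a1, of the SWEET sugar transporters, was at 21.4 ± 1.79 against 21.2 ± 0.569 RPKM, the lysosomal hexose carrier Slc2a6 at 4.93 ± 0.751 against 5.21 ± 0.421, and Slc37a4, which brings glucose 6-phosphate into the endoplasmic reticulum, at 3.59 ± 0.806 against 4.17 ± 0.0363.

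Organic ion, orphan and accessory genes completed the set, and none of them passed. The urea carrier Slc14a1 was at 16.9, 17.3 and 16.7 against 16.7, 19.9 and 18.3 RPKM, and the vesicular nucleotide carrier Slc17a9, which loads ATP for release, at 12.1 ± 1.34 against 11.01 ± 0.645. Slc46a3 of lysosomes was at 3.04 ± 0.696 against 2.64 ± 0.414 RPKM and Slc33a1, the acetyl-CoA carrier of the endoplasmic reticulum, at 1.44 ± 0.204 against 1.05 ± 0.216. Of the orphans, Slc38a10 was at 45.7 ± 1.74 against 45.1 ± 3.19 RPKM and Slc35a4 at 9.77 ± 0.751 against 8.998 ± 1.27. Slc37a3 was at 9.01, 8.68 and 8.54 against 7.80, 7.37 and 7.27 RPKM (limma adjusted p = 0.253) and the X-linked Slc10a3 at 2.64, 2.55 and 2.60 against 1.72, 2.20 and 2.02 (limma adjusted p = 0.329), both without overlap. The accessory genes Slc4a1ap and Slc7a6os were at 20.2 ± 0.576 against 19.01 ± 0.585 and 19.4 ± 1.58 against 17.2 ± 1.08 RPKM. Of the 7 members on the X chromosome 4 lay below 0 and none passed, with a median log2 difference of -0.11 beside the shift in Xist given above.

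Partners of carriers and transporters outside the Slc symbols gave a similar count. Of 33 listed genes 27 were tested, and 0 rose and 1 fell (1 higher and 3 lower at an unadjusted limma p under 0.05, and 0 and 2 with voom), with a median log2 difference of -0.06. The shares of all tested genes were 0.652% higher and 0.668% lower by limma. They were 5.55% and 8.6% at an unadjusted limma p under 0.05, and 2.52% and 1.65% with voom. Abcb1a, a drug efflux pump, fell from 22.3 ± 1.13 to 16.2 ± 0.476 RPKM (log2 difference -0.43, limma adjusted p = 0.0239). Its call was lost without floxed replicate 2 (0.0911) or 3 (0.101) and without cKO replicate 1 (0.0858), 2 (0.106) or 3 (0.0982), with the replicate block (0.115) and without the mean-variance trend (0.0679). The chaperones that bring monocarboxylate carriers to the surface, Emb and Bsg, were at 184 ± 8.29 against 153 ± 4.32 and 96.3 ± 2.25 against 107 ± 4.66 RPKM (limma adjusted p = 0.0615 and 0.211).

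How small a difference the data could show depended on the level. The median half-width of the 95% interval on the log2 difference was 0.38 for the 37 members under 2 RPKM, 0.31 for 35 members from 2 to 5, 0.22 for 36 from 5 to 20 and 0.14 for the 14 above. The interval lay within 0.25 of 0 for 19 members, within 0.5 for 91 and within 1 for 121, Slc27a6 being the exception. Differences of 1 on this log2 scale thus lay outside the interval of each member but Slc27a6, while small differences of the scarce members were not detectable. The scale is log2(RPKM + 1), which compresses changes of scarce members, so a difference of 1 on it is a larger fold change in RPKM. Slc16a6, at 53.2% of the floxed level, had a log2 difference of -0.52 here and -0.92 with voom. For Slc7a5, at 61.0%, the values were -0.41 and -0.71. A member rested on 25 to 7029 reads per library, and 38 members shared exon bases with another gene, 4 of them over 25%, Slc39a7, Slc24a5 and Slc33a1 among these.

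At the edge of the expression rule, the members with the lowest means were Slc19a2 at 0.821, Slc39a13 at 0.942, Slc24a5 at 1.03 and Slc39a14 at 1.06 RPKM. Just outside were Slc5a3 at 1.03, Slc20a2 at 0.841, Slc6a20b at 0.827 and Slc29a3 at 0.826 RPKM. Of the 140 genes under the rule 61 never reached 0.1 RPKM in a library, 9 reached 1 RPKM in 1 or 2 libraries, and 0 were at 0 in all 6. The folate carrier Slc19a1 was at 0.630 ± 0.280 against 0.659 ± 0.167 RPKM and the lysosomal peptide carrier Slc15a3 at 0.701 ± 0.201 against 0.849 ± 0.129.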

How the data were processed

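RNA-seq was run on 3 floxed and 3 cKO libraries from TRIzol-extracted RNA made with a stranded mRNA kit, per the labels' protocols. The submitters' processing notes name mm10, featureCounts, Subread 1.5.1, STAR 2.5.3a and edgeR 3.12.1. The strand setting and annotation were not stated there or in the labels. The authors deposited RPKM values per gene with exon coordinates and lengths. RPKM times length, divided by a fixed step for each library, gave whole reads for 99.955% to 100% of values (within 0.01 reads), 20152148 to 22440172 reads per library.

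All 12731 genes that reached 1 RPKM in 3 or more libraries were fitted with limma 3.58.1 (R 4.3.3; lmFit and eBayes with trend) on log2(RPKM + 1), a scale that understates changes of low genes. The fit had no covariates. P-values were two-sided, were adjusted over all genes by Benjamini-Hochberg, and passed under 0.05. Voom was run on the recovered reads with TMM scaling, and with library totals only. Levels are means ± SD of 3 libraries. Sums are RPKM added per library, without TMM scaling and without a test.

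The members, substrate classes, gene lists and naming rule were chosen with earlier results of these data known. The rule named passing members, the 2 most abundant members and the smallest p of each class, 24 nutrient carriers, and genes nearest the expression rule; others were named after their values were seen, and some genes under the rule are not reported here. Promoters are from RefSeq (GRCm38.p6). Exon overlaps used the deposited coordinates, and GENCODE M21 gave gene types; 98 members had the same start and end there. Chi-square between library pairs, per gene with at least 500 summed recovered reads, was 6.79 to 15.8 within groups, so none looked like a repeat deposit.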

Additional observations from a re-analysis of the deposited data

How the results depend on the processing

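All 16 alternatives kept the direction of Slc27a6, and 10 kept its call, with adjusted p from 8.01e-05 to 0.0883. The count of members higher in cKO went from 0 to 2 with voom and 1 with voom on library totals, which was added after seeing the data. The count lower went from 1 to 0 without the filter or with the replicate block, to 3 with voom on library totals, and was 0 to 1 with a library left out. Over all genes, 83 higher and 85 lower became 44 and 36 without the filter, 39 and 35 without the mean-variance trend, 321 and 210 with voom, 226 and 307 with voom on library totals, and 33 to 50 and 27 to 39 with a library left out. With the replicate number as a block they were 37 and 23, but the numbers did not pair the libraries: deviations of same-numbered libraries correlated at -0.03, 0.01 and 0.04, and a lost call under the block is not a weaker effect. Differences near 0 changed sign for Slc20a1 (0.0102 with voom, and -0.0536 to 0.0226 with a library left out), Slc25a5 (-0.0380 to 0.0979 with a library left out) and Slc25a3 (0.0055 with voom). The median log2 difference of all tested genes was -0.027 in the main test, 0.0024 with voom and -0.032 with voom on library totals. The cause of the sign changes was not tested. Without the filter, 0 of the 140 solute carriers under the expression rule passed limma and 5 had an unadjusted p under 0.05. Scarce members rest on few reads, which limits what could be detected.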
